A study of Mus musculus with 4 samples.

Results

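The collagen chain genes were followed in C2C12 myotubes, the fused, multinucleated muscle cells made by this mouse line. A gene counted as a member when its symbol had the form of a collagen chain (Col, a type number, a, a chain number) and it had at least 15 reads over all libraries. The table held 44 such symbols among 23282 genes, and 37 of them were members. All cells had been deprived of steroids, and they then received vehicle or 1 µM dexamethasone, a synthetic glucocorticoid, for 2 h. There were 2 libraries of each, 4 in all, made from the RNA that stayed bound to chromatin, a fraction used to read transcripts as they are made. The labels name both a total RNA kit and an mRNA kit, and which was used is not settled here; an mRNA kit would favour finished, polyadenylated transcripts. C2C12 is an established line labelled as female, and the cultures stand for a single line without the fibroblasts and vessels of whole muscle.

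Collagens are triple helices of 3 alpha chains, each built from short repeats that begin with glycine. Fibrillar types (I, III, V, XI) form the cables of connective tissue, type IV forms the sheet at the core of basement membranes, and type VI forms beaded filaments next to it. FACIT collagens sit on fibril surfaces, transmembrane collagens are anchored in the cell membrane, and the multiplexins XV and XVIII carry sugar chains at the basement membrane zone. Each muscle fibre is wrapped in a basement membrane, and in culture muscle cells themselves make part of it.

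Library totals ran from 19631435 to 88596296 reads, and the members took between 0.445% and 0.648% of them. The markers of myotubes were well read: Ttn, Neb, Myh3, Acta1 and the other 6 on the list all had counts, with a summed level of 130234 and 46637 CPM in vehicle replicates 1 and 2 and 125507 and 45460 in dexamethasone replicates 1 and 2. CPM here are counts scaled to a common library size with edgeR's TMM factors. Most of that sum was Ttn, the gene of the giant protein titin. Both replicate 1 libraries were above both replicate 2 libraries in 9 of the 10 genes, with overlapping treatment groups; the exception was Mymk, a fusion factor, with 176 and 173 CPM in vehicle and 208 and 208 in dexamethasone. The endothelial and blood list summed to between 4.22 and 5.04 CPM. In the fibroblast list, which holds 8 genes, Thy1, Tcf21 and Lum were listed at 0, and its sum ran from 210.6 to 330.1 CPM with no separation of the groups. Its read members went different ways. Gsn, also a muscle gene, had 70.7 and 98.9 CPM in vehicle and 177 and 208 in dexamethasone. Pdgfra was higher too, with 6.12 and 4.30 CPM in vehicle and 9.14 and 12.05 in dexamethasone (log2 fold change 1.04). Pdgfrb had 127 and 205 CPM in vehicle and 69.2 and 107 in dexamethasone. Dpt, with 8 to 16 reads a library, was also lower (log2 fold change -1.51). Cd34 overlapped between groups (-0.012). The list of reserve cell markers, among them Pax7, summed to 289 and 341 CPM in vehicle and 236.0 and 268 in dexamethasone. In 4 of its 7 genes both treated libraries were lowest, against 12.9% of all genes. Of the 7, Pax7 and Hes1 were lower with an unadjusted edgeR p under 0.05 (1.69% of all genes), and 2 had a log2 fold change above 0. The part of these cell types in the collagen results was not tested. These are bulk libraries, in which fewer cells of a kind and less RNA per cell cannot be told apart.

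In the vehicle libraries the chain genes spanned several orders of magnitude. Per kilobase of annotated exon, Col5a1 had the highest mean in vehicle (80.5 and 149 CPM per kb in replicates 1 and 2). It was followed by Col5a2 (75.5 and 91.2), Col25a1 (91.1 and 48.0) and Col3a1 (67.6 and 59.5). Type V collagen limits the width of collagen fibrils, type XXV is a membrane collagen needed for motor axons to enter muscle, and type III forms thin fibrils. The ranges of neighbours in this order overlapped over the 2 vehicle libraries. Within each vehicle library Col5a1 was above Col5a2, and both were above Col3a1. Col25a1 was the highest of these genes in replicate 1 and the lowest of them in replicate 2. Per kilobase of whole gene, introns included, the order was different: Col3a1 led with 17.4 and 15.3, before Col1a2 with 7.78 and 9.18, and Col25a1, which spans 468 kb, came down to 2.52 and 1.33. The files do not say whether introns were counted, so both scales are given.

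**Figure D1:**
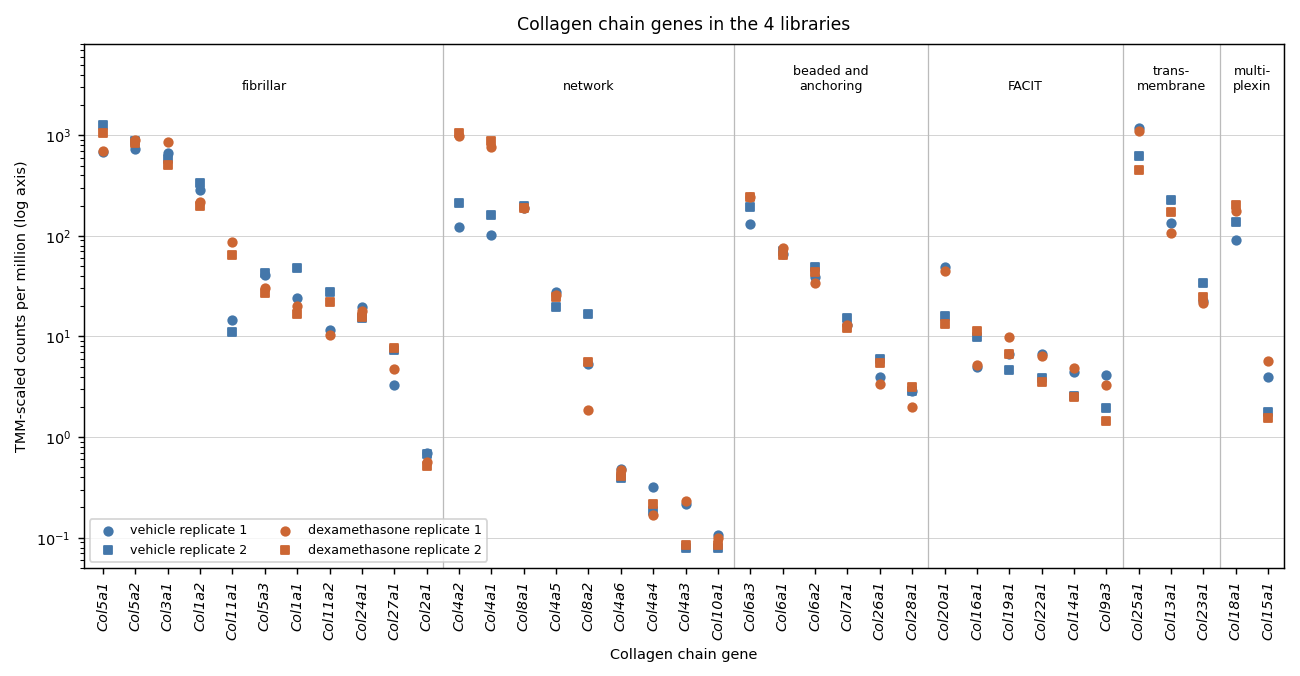
Level of each of the 37 collagen chain genes in the 4 libraries, in TMM-scaled CPM on a log axis, grouped by structural class; circles are replicate 1, squares replicate 2, blue vehicle and orange dexamethasone. Col4a1, Col4a2 and Col11a1 show the widest gap between the orange and blue points.

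Of the other 7 symbols, Col9a1 and Col9a2 had fewer than 15 reads. Col12a1, Col17a1, Col6a4, Col6a5 and Col6a6 were listed at 0 in all libraries. On the minus strand of chromosome 9, where 4 of these lie, 371 neighbouring genes in a row were listed at 0, while 376 of 410 genes on the other strand in the same stretch had reads. Col17a1 lay in a similar row of 146 genes on the minus strand of chromosome 19. The 5 genes were therefore not read as silent, and type XII collagen was not measured.

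The design sets dexamethasone against vehicle, to find transcription that responds to a glucocorticoid at 2 h. Col4a1 and Col4a2, the chains of the ordinary basement membrane molecule, were 6.21-fold and 6.09-fold higher on dexamethasone (2 libraries a group), and Col11a1, a minor fibrillar chain, was 5.83-fold higher. Col18a1 and Col6a3 were higher by smaller amounts, and Col1a1, Col1a2 and Col5a3 were lower. Of the 37 members 34 had enough reads to test; Col4a3, Col4a4 and Col10a1 had not. None of the 34 passed an adjusted p of 0.05 in edgeR's quasi-likelihood test, where 0.0376% of the 13285 genes tested were called higher and 0% lower. In the same test, 5 members were higher (4.09% of all genes) and 3 lower (1.69% of all genes) with an unadjusted p under 0.05. With no filter on low counts, Col11a1 passed in edgeR with an adjusted p of 0.0458, as did 0.129% of all genes. DESeq2's Wald test at an adjusted p of 0.05 called 3 members higher and 0 lower, against 1.77% and 0.399% of all genes. Those 3 were Col4a1, Col4a2 and Col11a1, and edgeR's likelihood ratio test called 3 higher too (1.83% of all genes) and 0 lower (0.339%). limma-voom called none at an adjusted p under 0.05 (0% of all genes in each direction). Before adjustment its p was under 0.05 for 5 members on the high side (4.06%) and 3 on the low side (1.74%). With replicate number as a block, the quasi-likelihood test called 6 members higher (6.87% of all genes) and 4 lower (5.78%) after adjustment. The 6 were Col4a1, Col4a2, Col11a1, Col18a1, Col19a1 and Col6a3, and the 4 were Col8a2, Col5a3, Col1a2 and Col13a1. The labels do not say that a replicate number marks a shared batch.

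The members did not move as a block. The median log2 fold change of the 34 was -0.073, beside -0.0016 for all genes tested, with 14 above 0 (49.7% of all genes) and 20 below. In 24 of the 34 the log2 fold change lay within 0.5 of 0, a smaller share than the 87.6% of all genes. The treated libraries were both above the controls in 5 members (15% of all genes) and both below in 4 (12.9% of all genes), shares close to those of the whole table. The size was larger in a few: 3 members had a log2 fold change of at least 2, as did 0.58% of all genes, and no more members came in at a cutoff of 1, which 2.39% of all genes passed. A log2 fold change of -0.5 or lower was seen in 4 members (5.9% of all genes), and 1 of them, Col8a2, was at -1 or lower (1.32% of all genes). Among all genes tested, Col11a1, Col4a1 and Col4a2 ranked 25, 33 and 57 by p.

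**Figure D2:**
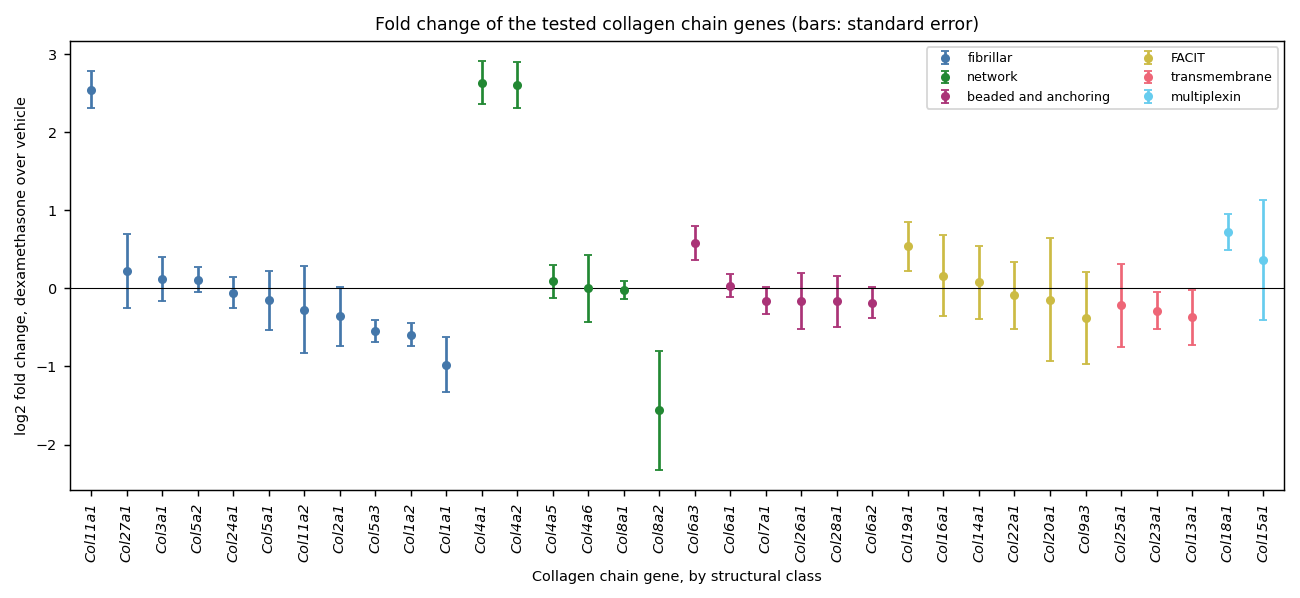
Log2 fold change of dexamethasone over vehicle for the 34 tested chain genes, by structural class, with standard errors as bars. Col4a1, Col4a2 and Col11a1 stand above 2, Col8a2 is the lowest, and the others lie within about 1 of zero.

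Col4a1 (ENSMUSG00000031502) encodes the chain that supplies 2 of the 3 strands of the common type IV molecule. It had 1890 and 6138 reads in vehicle replicates 1 and 2 and 22946 and 81194 in dexamethasone replicates 1 and 2, or 101 and 162 against 766 and 870 CPM. Both treated libraries were above both controls. The group means were 132 ± 42.7 and 818 ± 73.6 CPM (SD, n = 2 each), a ratio of 6.21. The log2 fold change was 2.63 (SE 0.276), with an adjusted p of 0.123 in edgeR's quasi-likelihood test and 1.40e-16 in DESeq2.

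Col4a2 (ENSMUSG00000031503) encodes the partner chain of the same molecule. It had 124 and 211 CPM in vehicle and 992 and 1046 in dexamethasone. Here too both treated libraries were above both controls, at 167 ± 61.8 and 1019 ± 37.8 CPM (SD, n = 2 each), a ratio of 6.09. The log2 fold change was 2.61 (SE 0.30), with an adjusted p of 0.123 in edgeR's quasi-likelihood test and 1.12e-14 in DESeq2. The ratio of Col4a1 to Col4a2 reads stayed nearly level, at 0.820, 0.766, 0.772 and 0.832 in vehicle 1, vehicle 2, dexamethasone 1 and dexamethasone 2. The pair took 4.8% and 7.14% of all collagen chain reads under vehicle and 26.4% and 31.2% under dexamethasone. Without the pair, the summed level of the members was 4459 and 4847 CPM in vehicle and 4904 and 4231 in dexamethasone, with overlapping groups.

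The pair is transcribed in opposite directions from one place. In RefSeq on GRCm38.p6 the annotated 5′ ends of the 2 genes overlap by 22 bases, chr8:11312805-11312826, shown on the plus strand with a GC box in capitals.
Col4a1-Col4a2 overlap: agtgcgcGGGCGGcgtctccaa
The annotation also places antisense transcripts over both genes, Gm15418 over 6081 bases of Col4a1 and Gm15419 over 18707 bases of Col4a2. Neither had a row in the table, and since the strand setting of the counting is not given, their reads cannot be told apart from those of the collagen genes.

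The other type IV chains were lower in reads and overlapped between groups. Col4a5, a chain of the less common type IV molecules, had 27.7 and 19.7 CPM in vehicle and 25.9 and 24.6 CPM in dexamethasone, with overlapping groups and a log2 fold change of 0.092 (SE 0.213). Col4a6 was near the limit of detection, at 9 and 15 reads in vehicle and 14 and 38 in dexamethasone. Col4a3 and Col4a4, which like Col4a5 and Col4a6 form a head-to-head pair, were not tested. Col4a3 had 4 and 3 reads in vehicle and 7 and 8 in dexamethasone, and Col4a4 had 6 and 7 in vehicle and 5 and 20 in dexamethasone. Col8a1, a short network-forming chain, was level: 191 and 198 CPM in vehicle and 191 and 191 in dexamethasone. Its log2 fold change was -0.024, with a 95% interval of -0.33 to 0.28, so a change as large as that of Col4a1 lies outside it.

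Col8a2, the partner of Col8a1, had the lowest log2 fold change of all members, -1.56 (SE 0.762), and was singled out after its values were seen. It had 5.31 and 16.9 CPM in vehicle and 1.87 and 5.57 in dexamethasone, so dexamethasone replicate 2 overlapped vehicle replicate 1. The adjusted p was 1.00 in edgeR's quasi-likelihood test, and the log2 fold change ran from -2.58 to -0.48 when single libraries were left out. Within each replicate number, the dexamethasone library was below the vehicle library. With replicate number added to that test as a block, the log2 fold change was -1.57 and the adjusted p 0.00039.

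Among fibrillar chains only Col11a1 (ENSMUSG00000027966) had both treated libraries above both controls. It encodes a chain of type XI collagen, which starts fibril growth in cartilage and also joins type V molecules elsewhere. Its reads numbered 272 and 424 in vehicle and 2587 and 5963 in dexamethasone, or 14.6 and 11.2 against 86.3 and 63.9 CPM. The groups did not overlap, and their means were 12.9 ± 2.42 and 75.1 ± 15.9 CPM (SD, n = 2 each), a ratio of 5.83. The log2 fold change was 2.55 (SE 0.242), with an adjusted p of 0.121 in edgeR's quasi-likelihood test and 3.53e-16 in DESeq2. Col11a2, its partner chain, had 11.7 and 27.7 CPM in vehicle and 10.4 and 22.2 in dexamethasone, with overlapping groups and a log2 fold change of -0.27 (SE 0.556).

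Type I collagen, the main fibril of tendon and scar, lay on the low side. Col1a1 (ENSMUSG00000001506) had 24.3 and 47.4 CPM in vehicle and 19.9 and 16.8 in dexamethasone. The groups did not overlap, but vehicle replicate 2 was 1.95 times vehicle replicate 1. The log2 fold change was -0.98 (SE 0.356; edgeR adjusted p 0.823). Leaving out vehicle replicate 2 brought it to -0.40, and leaving out vehicle replicate 1 to -1.37. Col1a2 (ENSMUSG00000029661), the second chain of type I, had 286 and 337 CPM in vehicle and 215 and 198 in dexamethasone. The separation was modest and clean, with a log2 fold change of -0.59 (SE 0.146; edgeR adjusted p 0.436) that ran from -0.71 to -0.46 when single libraries were left out.

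Col5a3 (ENSMUSG00000004098), a rarer chain of type V, was also lower in both treated libraries. It had 40.8 and 43.2 CPM in vehicle and 30.6 and 27.1 in dexamethasone, a log2 fold change of -0.54 (SE 0.144; edgeR adjusted p 0.490). The other type V chains did not separate the groups: Col5a1 had 683 and 1267 CPM in vehicle and 695 and 1063 in dexamethasone. Col5a2 had 724 and 875 CPM in vehicle and 895 and 833 in dexamethasone. Their log2 fold changes were -0.15 (SE 0.378) and 0.11 (SE 0.159).

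Col3a1 had 664 and 584 CPM in vehicle and 852 and 506 in dexamethasone, again with overlap and a log2 fold change of 0.12 (SE 0.284). Col24a1, a fibrillar chain of bone, had 19.4 and 15.3 CPM in vehicle and 17.8 and 15.6 in dexamethasone. Of the other fibrillar members, Col27a1 had between 3.27 and 7.67 CPM. Col2a1, the cartilage chain, had 13 to 48 reads a library, and although its groups did not overlap (0.697 and 0.685 against 0.567 and 0.514 CPM) its unadjusted p in edgeR was 0.386. Over the class, 4 of 11 log2 fold changes were above 0, with a median of -0.15.

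**Figure D3:**
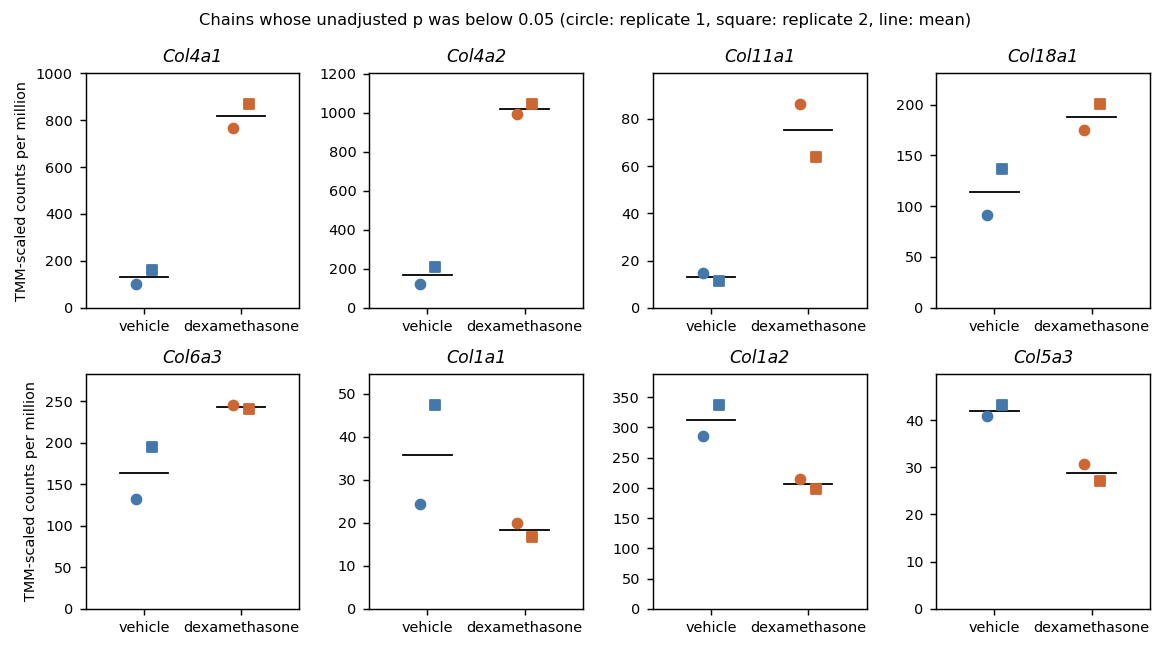
Scaled CPM of the 8 chain genes with an unadjusted p under 0.05, vehicle against dexamethasone; circles are replicate 1, squares replicate 2, and the line is the group mean. Each axis starts at 0. The groups do not overlap in any of the 8, and the gap is widest for Col4a1, Col4a2 and Col11a1.

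Type VI collagen, which links the muscle basement membrane to the matrix around it, separated the groups in 1 of its 3 measured chains. Col6a3 (ENSMUSG00000048126), the largest chain, had 132 and 194 CPM in vehicle and 246 and 241 in dexamethasone, a log2 fold change of 0.58 (SE 0.217; edgeR adjusted p 0.862). It came to 0.33 when vehicle replicate 1 was left out and 0.89 when vehicle replicate 2 was. Col6a1 had 65.9 and 71.1 CPM in vehicle and 76.2 and 64.0 in dexamethasone, and Col6a2 had 38.9 and 49.3 CPM in vehicle and 34.3 and 43.6 in dexamethasone. Both overlapped between groups. Within libraries, Col6a3 gave 3.39 and 3.94 reads per Col6a2 read in vehicle and 7.17 and 5.53 in dexamethasone. Of the remaining members of this class, Col7a1, the chain of anchoring fibrils, had 12.98 and 15.3 CPM in vehicle and 13.1 and 12.2 in dexamethasone, with overlapping groups. Col26a1 and Col28a1 lay between 2.00 and 5.93 CPM.

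Col18a1 (ENSMUSG00000001435) encodes the multiplexin whose end fragment is endostatin. It had 91.1 and 137 CPM in vehicle and 175 and 201 in dexamethasone, so that the groups were apart. The log2 fold change was 0.72 (SE 0.234; edgeR adjusted p 0.714), with 0.46 when vehicle replicate 1 was left out and 1.05 when vehicle replicate 2 was. Slc19a1 overlaps 8825 bases of it on the other strand and had 2514 reads over all libraries. Col15a1, the other multiplexin, was low and split by replicate number, with 3.92 and 1.77 CPM in vehicle and 5.77 and 1.55 in dexamethasone.

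The transmembrane collagens overlapped between groups. Col25a1 had 1179 and 621 CPM in vehicle and 1098 and 450.5 in dexamethasone. Col13a1, which is found at the neuromuscular junction, had 134 and 225 CPM in vehicle and 107 and 171 in dexamethasone. Col23a1 had 22.7 and 33.9 CPM in vehicle and 21.7 and 24.9 in dexamethasone. In both Col25a1 and Col13a1 the 2 libraries of a group differed more than the group means did. Within each replicate number, the dexamethasone library was below the vehicle library in each of these transmembrane genes. With replicate number as a block, edgeR's adjusted p was 0.0089 for Col13a1, 0.094 for Col25a1 and 0.135 for Col23a1.

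The FACIT collagens overlapped as well. Col20a1 had 48.5 and 15.9 CPM in vehicle and 45.1 and 13.2 in dexamethasone, and Col22a1, a collagen of the muscle-tendon junction, had 6.76 and 3.90 CPM in vehicle and 6.44 and 3.57 in dexamethasone. The other 4, Col9a3, Col14a1, Col16a1 and Col19a1, lay between 1.46 and 11.4 CPM. The median log2 fold change of the 6 FACIT genes was -0.0052. Col19a1 is given because it was called higher with replicate number as a block (edgeR adjusted p 0.0245). It had 6.71 and 4.64 CPM in vehicle and 9.78 and 6.67 in dexamethasone, higher on dexamethasone within each replicate number. Without the block its log2 fold change was 0.54 (SE 0.313).

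Chains were split by replicate number about as often as genes in the whole table. The replicate 1 libraries were both higher than the replicate 2 libraries in 11 of the 34 members (31.8% of all genes) and both lower in 10 (32.1% of all genes). The members on the high side in replicate 1 included 5 of the 6 FACIT genes, Col25a1, Col15a1 and Col3a1. In Col20a1 the replicate 2 level was 0.329 of the replicate 1 level in vehicle and 0.292 in dexamethasone, and in Col25a1 it was 0.527 and 0.410. The same ratio was 0.348 and 0.352 for Ttn, and 9 of the 10 myotube markers were high in replicate 1. On the other side were Col8a2, with ratios of 3.18 and 2.98, Col11a2 (2.37 and 2.13), Col5a1 (1.85 and 1.53) and Col13a1 (1.68 and 1.6). The part of the myotube markers in these differences was not tested.

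**Figure D4:**
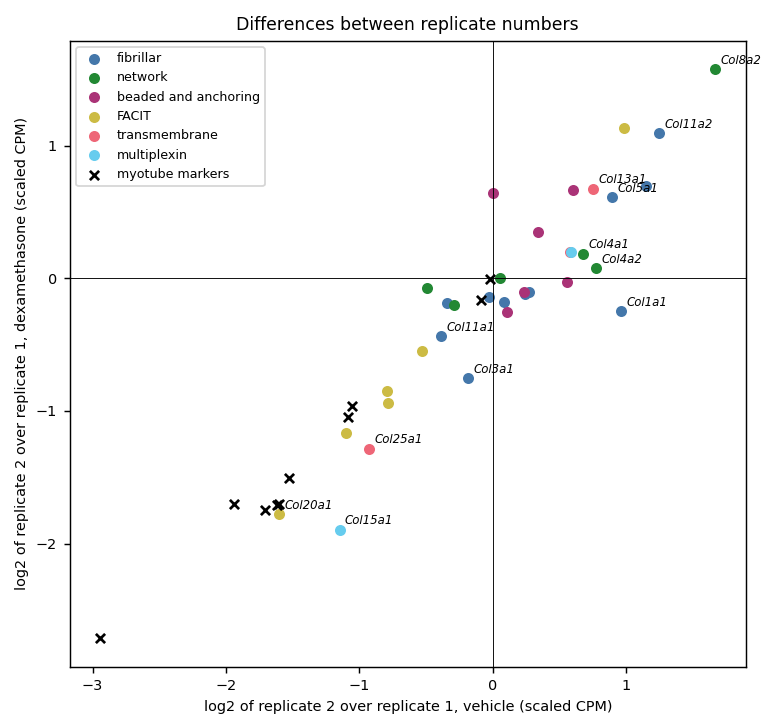
Log2 ratio of replicate 2 to replicate 1 in vehicle (horizontal) and in dexamethasone (vertical) for the 34 tested chain genes, by class, with the 10 myotube markers as crosses. Col20a1, Col25a1 and Col15a1 lie at the lower left with most of the muscle markers, and Col8a2 and Col11a2 at the upper right.

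The genes that build, cut, cross-link and bind collagen were taken as 4 lists. Of 64 listed genes 55 were tested, and 0 passed an adjusted p of 0.05 in edgeR's quasi-likelihood test; with an unadjusted p under 0.05, 8 were higher (4.09% of all genes) and 4 lower (1.69%), and DESeq2's adjusted p called 5 higher (1.77% of all genes) and 1 lower (0.399%). Their median log2 fold change was -0.13, with 24 above 0. Another 7 were listed at 0, among them Crtap and Loxl1 on the minus strand of chromosome 9 and Loxl4 and Tll2 on that of chromosome 19, in the rows of genes at 0 described above.

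For modification and folding, 7 of 17 tested genes were above 0 and 10 below (median -0.15). Plod2, a lysyl hydroxylase that prepares collagen for stable cross-links and the highest of its list by mean CPM over all 4 libraries though not in vehicle alone, had 146 and 145 CPM in vehicle and 302 and 248 in dexamethasone. Its log2 fold change was 0.92 (SE 0.15; adjusted p 0.209 in edgeR and 0.0021 in DESeq2). P4ha2, a prolyl hydroxylase subunit, had 43.5 and 41.3 CPM in vehicle and 77.6 and 62.7 in dexamethasone. Both genes had all treated libraries above all controls.

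For procollagen processing and cross-linking, 5 of 10 tested genes were above 0 (median -0.0036). Loxl3, a lysyl oxidase that forms the cross-links, had 15.1 and 22.8 CPM in vehicle and 53.7 and 71.4 in dexamethasone, a log2 fold change of 1.72 (SE 0.276; edgeR adjusted p 0.201). Tll1, a protease that trims procollagen ends, had 24 and 73 reads in vehicle and 205 and 1015 in dexamethasone, a log2 fold change of 2.44 (SE 0.370; edgeR adjusted p 0.191). DESeq2's adjusted p was 6.14e-06 for Loxl3 and 6.26e-06 for Tll1. Lox itself had 18.1 and 21.4 CPM in vehicle and 29.9 and 31.2 in dexamethasone. Adamts14, a propeptide-removing protease and the highest of its list by mean CPM, overlapped between groups (178 and 295 against 282 and 338 CPM).

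Among collagen receptors and uptake, 3 of 7 tested genes were above 0 (median -0.14). Itga10, an integrin chain that binds collagen, had 5.74 and 8.64 CPM in vehicle and 14.2 and 18.8 in dexamethasone, with an adjusted p of 0.415 in edgeR and 0.0312 in DESeq2. Mrc2, an endocytic receptor that takes up collagen for breakdown, was on the other side, with 67.2 and 99.98 CPM in vehicle and 32.1 and 49.2 in dexamethasone (log2 fold change -1.04, SE 0.304; adjusted p 0.593 in edgeR and 0.0583 in DESeq2). Itgb1, the shared beta chain and the highest of its list by mean CPM over all 4 libraries though not in vehicle alone, had 369 and 293 CPM in vehicle and 477 and 391 in dexamethasone.

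In the list of other matrix partners 9 of 21 tested genes were above 0 (median -0.13). Postn, a collagen-binding matrix protein, had the largest log2 fold change of the 4 lists, 3.06 (SE 0.343), at 11.1 and 10.6 CPM in vehicle and 117 and 63.9 in dexamethasone. Its adjusted p was 0.123 in edgeR's quasi-likelihood test, and 5.00e-16 in DESeq2. The basement membrane partners of type IV collagen went different ways. Lamc1, the common laminin gamma chain, had 139 and 138 CPM in vehicle and 198 and 194 in dexamethasone (log2 fold change 0.50, SE 0.114; edgeR adjusted p 0.377). Nid1, which bridges laminin and type IV collagen, had 47.0 and 68.9 CPM in vehicle and 26.2 and 33.3 in dexamethasone (log2 fold change -0.96, SE 0.250; adjusted p 0.479 in edgeR and 0.0435 in DESeq2). Fn1, fibronectin, the highest of its list by mean CPM over all 4 libraries though not in dexamethasone alone, had 1822 and 2176 CPM in vehicle and 1508 and 1636 in dexamethasone.

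**Figure D5:**
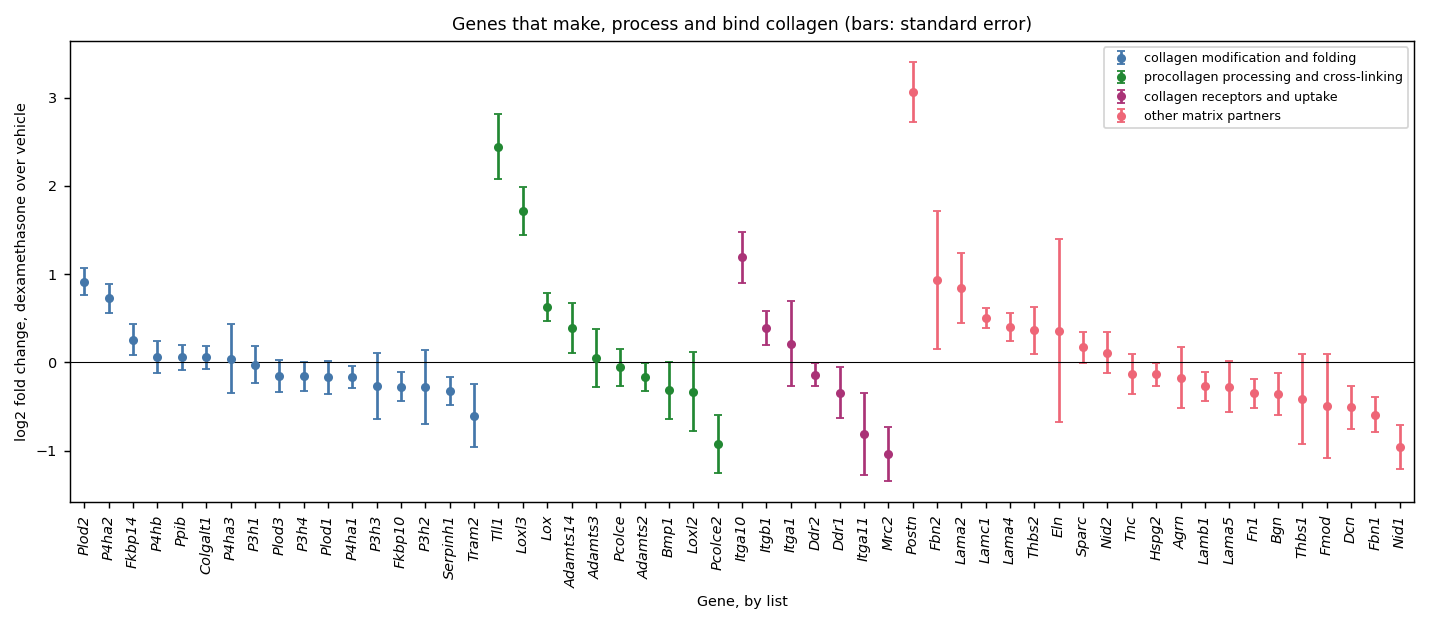
Log2 fold change of dexamethasone over vehicle for the 55 tested genes that make, process, bind or accompany collagen, by list, with standard errors as bars. Postn, Tll1, Loxl3 and Itga10 are highest, and Mrc2, Nid1 and Pcolce2 lowest.

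Promoter sequences from RefSeq (GRCm38.p6) were found for 29 of the 37 members, in 31 windows of 250 bases upstream of a start. The full palindrome bound by the glucocorticoid receptor, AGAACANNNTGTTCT, was in none of them and in 0.00913% of 32851 windows of all genes. It is so rare in such windows that its absence from 31 of them tells nothing about the members. The hexamer AGAACA, which the palindrome contains, was found on either strand in 1 member, Col20a1, and in 16.1% of all windows. The TATA box TATAAA was in 4 members and 12.4% of all windows. The CCAAT box was in 10 members (33.8% of all windows), and the GC box GGGCGG in 17 (32.7% of all windows), each on either strand; the 2 motifs can share their C bases. Over all members, 32.3% of windows held a CCAAT box. Of the 8 members with an unadjusted edgeR p under 0.05, 7 had a window and 6 of these held the box. Among the other 22 members with a window, 4 did. The 6 were Col4a1, Col4a2, Col11a1 and Col18a1, higher on dexamethasone, and Col1a2 and Col5a3, lower. This split was noticed after the values and windows had been seen, so it cannot test a link between the box and the response. A match only says that the letters are there, and the lack of a match says nothing about sequence outside the window.

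The upstream windows of 4 of these members are shown because they include both members above and below their controls; capitals mark CCAAT and GC boxes on either strand. Col11a1 is chr3:114030290-114030539 (plus strand), Col18a1 its upstream start at chr10:77166531-77166780 (minus), Col1a2 chr6:4505368-4505617 (plus) and Col5a3 chr9:20815068-20815317 (minus).
Col11a1: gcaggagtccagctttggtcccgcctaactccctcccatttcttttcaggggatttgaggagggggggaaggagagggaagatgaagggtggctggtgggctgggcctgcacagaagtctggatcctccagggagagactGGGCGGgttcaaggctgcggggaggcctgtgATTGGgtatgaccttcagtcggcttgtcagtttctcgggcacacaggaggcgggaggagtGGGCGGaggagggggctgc
Col18a1: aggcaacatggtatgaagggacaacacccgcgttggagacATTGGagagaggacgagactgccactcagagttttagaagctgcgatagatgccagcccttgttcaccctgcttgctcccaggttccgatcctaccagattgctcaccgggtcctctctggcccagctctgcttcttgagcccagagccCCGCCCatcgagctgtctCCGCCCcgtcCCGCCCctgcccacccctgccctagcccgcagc
Col1a2: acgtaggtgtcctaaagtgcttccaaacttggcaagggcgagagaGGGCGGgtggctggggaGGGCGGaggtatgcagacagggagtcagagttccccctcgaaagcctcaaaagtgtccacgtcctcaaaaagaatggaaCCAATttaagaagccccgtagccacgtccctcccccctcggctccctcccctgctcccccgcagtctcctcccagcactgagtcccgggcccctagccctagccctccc
Col5a3: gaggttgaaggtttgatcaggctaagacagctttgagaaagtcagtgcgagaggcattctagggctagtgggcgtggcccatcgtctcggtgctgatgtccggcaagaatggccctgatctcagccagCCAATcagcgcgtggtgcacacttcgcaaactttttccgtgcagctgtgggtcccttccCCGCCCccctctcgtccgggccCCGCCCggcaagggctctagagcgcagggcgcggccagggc
Col11a1, higher on dexamethasone, and Col1a2 and Col5a3, lower, each held 1 CCAAT box and 2 GC boxes, with G and C making up 62.4%, 62.0% and 62.8% of the bases. Col18a1 held 1 and 3. The downstream start of Col18a1 and the window of Col6a3 held neither.

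Whether Col4a1, Col4a2 and Col11a1 passed depended on the test, the replicate block and which libraries were fitted. For Col11a1 it also depended on the filter. The log2 fold changes of all 3 kept their direction throughout. With 1 library left out, edgeR's quasi-likelihood test assumes that the lone library of a group varies like the other group. Leaving out vehicle replicate 2 gave an adjusted p of 0.00564 for Col4a1 and Col4a2 and 0.0133 for Col11a1, where 0.613% of all genes were called higher. Leaving out dexamethasone replicate 1 gave 0.0329 for Col4a1 and 0.0402 for Col4a2 and Col11a1 in edgeR (adjusted p), with 0.174% of all genes called higher. Leaving out dexamethasone replicate 2 gave 0.0415, 0.0478 and 0.0192 for Col4a1, Col4a2 and Col11a1 in edgeR (adjusted p), with 0.205% of all genes called higher. Leaving out vehicle replicate 1 gave 0.0542 for each of the 3 in edgeR (adjusted p), and 0.0295% of all genes were called higher. The log2 fold changes over these fits ran from 2.34 to 3.02 for Col4a1, from 2.27 to 3.05 for Col4a2 and from 2.32 to 2.75 for Col11a1.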

How the data were processed

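Nascent RNA was sequenced in 2 vehicle and 2 dexamethasone libraries; per the labels' protocols, it was taken from the chromatin pellet of lysed nuclei. The authors deposited 1 table of raw counts per gene. The submitters' processing notes name TopHat2 2.0.13, SAMtools 1.1, HTSeq 0.6.1, DESeq2 1.18.1 and the mm9 build; the strand setting and whether introns were counted are not given in the sources used here. Nothing says that the libraries came from separate cultures, so p-values measure only the spread between them.

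Repeated rows (51 of 23333) were dropped, none of them a collagen. Genes passing filterByExpr (minimum count 10, minimum total 15) went into edgeR 4.0.16 under R 4.3.3 (TMM, quasi-likelihood, group as the only term, Benjamini-Hochberg over 13285 genes, threshold 0.05); SE is the log2 fold change over the root of F. DESeq2 1.42.0, limma 3.58.1, other scalings and filters, a replicate block and leaving out each library were alternatives. The fits were tested on simulated data with the same dispersion for every gene and no replicate effect. That check does not cover the differences between replicate numbers seen here. Lengths and neighbours come from GENCODE M21 and promoters from RefSeq, both GRCm38, matched by gene ID or symbol; no coordinate was mixed with mm9. The members and lists were chosen with earlier results of these data known.

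Members are given with every library's value if their mean is at least 10 CPM, their unadjusted edgeR p is under 0.05, or they are of type I, III, IV, V, VI, XII, XIII, XV, XVIII, XXII or XXV. Pathway genes are given if among the 10 with the smallest p, or the highest of their list by mean CPM over the 4 libraries. This left out Fbn1 and Pcolce2, both lower on dexamethasone with an unadjusted edgeR p under 0.05. Fbn1 had 994 and 859 CPM in vehicle and 700 and 530 in dexamethasone. Pcolce2 had 4.40 and 2.87 CPM in vehicle and 1.77 and 2.02 in dexamethasone. The dividing cell list summed to between 26.6 and 31.6 CPM.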

Additional observations from a re-analysis of the deposited data

How the results depend on the processing

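Against 5 genes called over the whole table, 23 were called with no filter beyond 1 count, 288 by DESeq2's Wald test, 288 by edgeR's likelihood ratio test and 0 by limma-voom. For 0 collagen chain genes the counts were 1 with no filter (Col11a1), 3 under DESeq2 and 3 under the likelihood ratio test; for 0 genes of the 4 pathway lists they were 6 under DESeq2 and 5 under the likelihood ratio test. The cause was not tested. Leaving out single libraries gave 4 to 193 calls (193 without vehicle replicate 2), 0 to 3 collagen chains, 0 to 3 pathway genes and a collagen median of -0.092 to 0.068.

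The labels do not say that a replicate number marks a shared batch, and the number of pairs is too small to show it. Replicate 1 minus replicate 2 correlated between groups with r = 0.734 across 13285 genes. Libraries of the same replicate number correlated with r = 0.981 (replicate 1) and 0.989 (replicate 2). Those of the same group did so with r = 0.973 (vehicle) and 0.980 (dexamethasone). A replicate block called 1681 genes, 10 collagen chains (6 higher, 4 lower) and 21 pathway genes and left 1 residual degree of freedom fewer. Background shares there were 6.87% higher and 5.78% lower. Col4a1, Col4a2 and Col11a1 were at 2.66, 2.65 and 2.54. Among higher members edgeR's adjusted p with the block was 0.0044 for Col18a1, 0.0245 for Col19a1 and 0.0307 for Col6a3. Among lower members it was 0.00039 for Col8a2, 0.0071 for Col5a3 and 0.0076 for Col1a2.

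Of the 25 tested chains that the naming rule picked, leaving out single libraries turned the sign of 16. None of these was called with all libraries and no block, and Col13a1 was called with the block (edgeR adjusted p 0.0089). Col11a2 ran from -0.93 to 0.50, Col13a1 from -0.75 to 0.064, Col15a1 from -0.85 to 1.04, Col20a1 from -1.28 to 0.86, Col22a1 from -0.56 to 0.35, Col23a1 from -0.54 to 0.045, Col24a1 from -0.21 to 0.13, Col25a1 from -0.99 to 0.32, Col3a1 from -0.30 to 0.45, Col4a5 from -0.13 to 0.36, Col4a6 from -0.15 to 0.13, Col5a1 from -0.53 to 0.37, Col5a2 from -0.018 to 0.26, Col6a1 from -0.092 to 0.15, Col6a2 from -0.37 to 0.0083 and Col8a1 from -0.051 to 0.011. Col6a1 was at -0.017 with library size only, and Col4a6 at 0.013 with no filter and 0.0062 with the block. The remaining 206 values under other settings kept direction and side, and 15 came to pass the threshold. The 3 untested chains had too few reads for the filter.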
